A study of Homo sapiens with 3 samples.

Results

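Fatty acid synthesis and desaturation were followed through 10 genes in MTAC-P, a PC9-derived human lung cancer line with resistance to tyrosine kinase inhibitors of EGFR, the epidermal growth factor receptor. The genes were chosen by name, as the enzymes and the transcription factor of the pathway, and all 10 were found among the 26562 genes to which the deposited entries were assigned. They are the transcription factor gene SREBF1, the enzymes that supply acetyl-CoA (ACLY, ACSS2), the synthesis enzymes ACACA and FASN, the elongase ELOVL6, the desaturases SCD, FADS1 and FADS2, and the acyl-CoA synthetase ACSL3. Bulk RNA of cells carrying short hairpins against BCAT1 (2 libraries, shBCAT1 1 and shBCAT1 2) was set against RNA of cells carrying a control hairpin against luciferase (1 library). The growth medium was DMEM with fetal bovine serum for every library, and the labels name no drug. The series' design speaks of triplicate profiles, and the 3 libraries used here are 2 of one kind and 1 of the other. The labels do not say whether the shBCAT1 libraries carry 1 hairpin, come from separate cultures or come from a clone, so their spread may be technical.

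De novo synthesis starts from citrate that has left the mitochondrion. ATP citrate lyase (ACLY) splits it to acetyl-CoA, and ACSS2 makes the same product from acetate. Acetyl-CoA carboxylase (ACACA) forms malonyl-CoA in the committed step, and fatty acid synthase (FASN) builds palmitate from it. ELOVL6 lengthens palmitate, SCD places the first double bond in saturated chains, and FADS1 and FADS2 act on the polyunsaturated branch. ACSL3 activates fatty acids to acyl-CoA for membranes and lipid droplets, and SREBP-1, the product of SREBF1, switches on most of these genes when it is cleaved from its membrane-bound precursor. Lung cancer cells can make fatty acids themselves, and SREBP-1 is one of the factors through which growth factor signalling reaches this pathway.

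Values are FPKM (fragments scaled by transcript length and by mapped fragments), each with deposited confidence bounds that lie 2 SD either side of it, unless cut at 0. Entries of a gene were summed, and the squared ratio of value to SD was read as equivalent fragments. Counting error below is the root sum of squares of the SDs of the libraries compared. These SDs also hold some error from assigning reads to transcripts. The shBCAT1 1 library summed to 44312 FPKM over all genes and shBCAT1 2 to 46145 FPKM, against 53898 FPKM for the control, and depth read from the bounds was 1.03 and 1.09 times the control. The targeted gene was not lower. BCAT1 stood at 1.05 FPKM in shBCAT1 1 (bounds 0.835 to 1.27) and 0.241 FPKM in shBCAT1 2 (0.158 to 0.325), against 0.213 FPKM in the control (0.129 to 0.297), so every direction below is between libraries as they are labelled. All 6 epithelial markers (EPCAM, CDH1 and the keratin genes KRT7, KRT8, KRT18 and KRT19) reached 1 FPKM in at least 1 library, while 0 of 5 markers of lung adenocarcinoma did, with the lineage factor NKX2-1 at 0.0326 and 0 FPKM in the shBCAT1 libraries and 0.101 FPKM in the control. None of the fibroblast, blood, endothelial and adipocyte markers examined reached 1 FPKM.

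FASN was the most abundant of the 10 genes and the one that stood furthest above the control in both libraries by counting error. FASN (chromosome 17, 82078338 to 82098230, hg38) was at 10.5 FPKM in shBCAT1 1 (bounds 9.90 to 11.0) and 12.3 FPKM in shBCAT1 2 (11.7 to 12.9), against 9.35 FPKM in the control (8.80 to 9.90). Both shBCAT1 libraries were above the control and their bounds lay apart from it, in shBCAT1 1 by a gap of only 0.0036 FPKM. The ratios to the control were 1.12 and 1.32, and the differences were 2.84 and 7.28 times the counting error. The mean of the shBCAT1 libraries was 11.4 ± 1.3 FPKM (SD, n = 2). The log2(FPKM + 1) difference was 0.26 ± 0.21 (SE), with an adjusted p of 0.839 by limma and a 95% interval from -0.33 to 0.84, which covers 0. The shBCAT1 libraries differed from each other by 4.44 times the counting error. With 1 library against 2, an exact permutation test cannot give a p below 0.333, so none was run. In bulk RNA a higher share of cells that express a gene and more RNA per cell cannot be told apart, here and for the genes below.

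**Figure D1:**
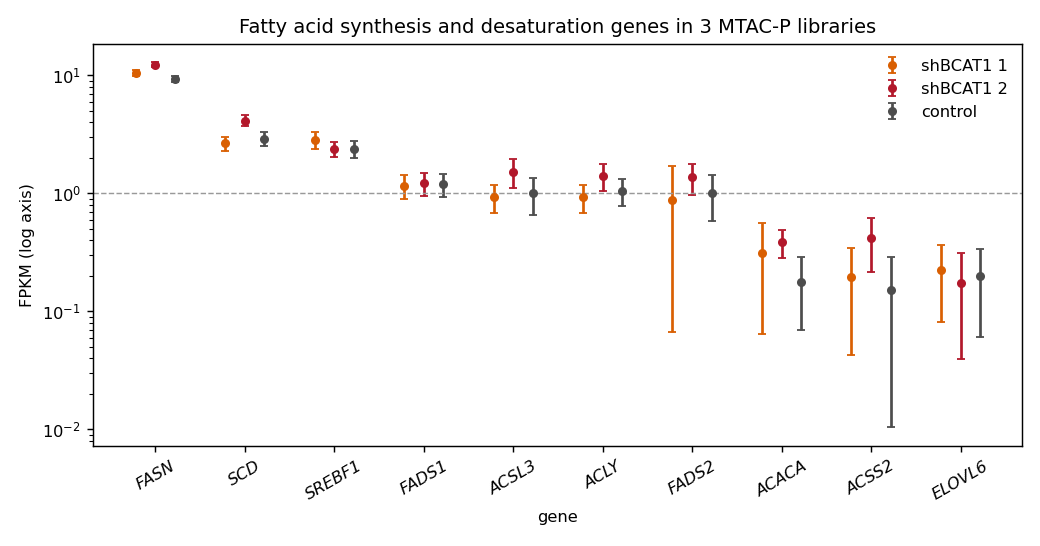
FPKM of the 10 genes (log axis) in the libraries shBCAT1 1, shBCAT1 2 and control, with the deposited confidence bounds as bars (root sum of squares over the entries of a gene) and a dashed line at 1 FPKM. FASN lies above the other 9 genes in each library, and its bounds lie apart from the control in both shBCAT1 libraries, while SCD does so in shBCAT1 2 alone.

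The transcription factor gene SREBF1 stood above the control in shBCAT1 1, within the bounds, and level with it in shBCAT1 2. SREBF1 (chromosome 17, 17811349 to 17837011) was at 2.83 FPKM in shBCAT1 1 (bounds 2.37 to 3.29) and 2.37 FPKM in shBCAT1 2 (2.02 to 2.72), against 2.37 FPKM in the control (1.98 to 2.76). The value of shBCAT1 2 was 1.00 times that of the control, and all bounds overlapped. The mean was 2.6 ± 0.32 FPKM (SD, n = 2) and the log2(FPKM + 1) difference 0.09 ± 0.20 (SE; limma adjusted p 0.932). The microRNA genes MIR33B and MIR6777 lie within the SREBF1 locus, where both were listed at 0 in all libraries, and the gene RAI1 overlaps it.

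The enzymes that supply acetyl-CoA were low in level and showed no common pattern. ACLY (chromosome 17, 41866917 to 41919022) was at 0.933 FPKM in shBCAT1 1 (bounds 0.686 to 1.18) and 1.41 FPKM in shBCAT1 2 (1.04 to 1.78), against 1.06 FPKM in the control (0.787 to 1.33). It was below the control in one library and above it in the other, with overlapping bounds, and the log2(FPKM + 1) difference was 0.07 ± 0.22 (SE; limma adjusted p 0.947). ACSS2 (chromosome 20, 34874963 to 34927966) was at 0.195 FPKM in shBCAT1 1 (0.0423 to 0.347) and 0.418 FPKM in shBCAT1 2 (0.215 to 0.621), against 0.150 FPKM in the control (0.0104 to 0.29). These values rest on 6.53, 16.9 and 4.62 equivalent fragments, and the bounds overlapped although shBCAT1 2 was at 2.78 times the control. Its transcript NM_018677 held this value in shBCAT1 2, at 0.418 FPKM (0.225 to 0.611), and was close to 0 in shBCAT1 1 (upper bound 0.0465) and in the control (upper bound 0.0479), where NM_001242393 held the value instead.

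ACACA, the committed step, was also below 1 FPKM in every library. ACACA (chromosome 17, 37084992 to 37406811) was at 0.310 FPKM in shBCAT1 1 (bounds 0.0643 to 0.556) and 0.385 FPKM in shBCAT1 2 (0.281 to 0.489), against 0.179 FPKM in the control (0.0696 to 0.288). Both shBCAT1 libraries were higher, at 1.73 and 2.15 times the control, yet the bounds overlapped in both. The differences were 0.977 and 2.74 times the counting error. The values lay on different transcripts of the gene. The transcript NM_198836 was at 0.251 FPKM in shBCAT1 1 (0.086 to 0.416) and 0.385 FPKM in shBCAT1 2 (0.284 to 0.486), against a value close to 0 in the control (upper bound 0.0142). The transcript NM_198837 was at 0.0587 FPKM in shBCAT1 1 (0 to 0.239) and close to 0 in shBCAT1 2 (upper bound 0.013), against 0.135 FPKM in the control (0.066 to 0.204). NM_198836 thus held most of the gene's value in both shBCAT1 libraries, and NM_198837 held most of it in the control. Reads from exons that both share can be assigned to either, and the bounds may not hold all of that uncertainty.

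ACACA is transcribed from several start sites, and the windows below show the ones that these transcripts use. They run from 250 bases before to 50 bases after each RefSeq start on GRCh38.p14. The first is the window nearest the start of NM_198836 (chr17:37359047-37359346, minus strand; RefSeq start 37359096, deposited start 37359116), the second that at the start of NM_198837 (chr17:37299718-37300017, minus strand), and the third is the window of the desaturase gene SCD (chr10:100346983-100347282, plus strand; RefSeq start 100347233, deposited start 100347015), shown because the shBCAT1 libraries lay furthest apart for SCD when measured in counting error. Capitals mark the NF-Y box, CCAAT, and its reverse complement, ATTGG. FASN has no entry in the RefSeq promoter table used.

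ACACA, start of NM_198836: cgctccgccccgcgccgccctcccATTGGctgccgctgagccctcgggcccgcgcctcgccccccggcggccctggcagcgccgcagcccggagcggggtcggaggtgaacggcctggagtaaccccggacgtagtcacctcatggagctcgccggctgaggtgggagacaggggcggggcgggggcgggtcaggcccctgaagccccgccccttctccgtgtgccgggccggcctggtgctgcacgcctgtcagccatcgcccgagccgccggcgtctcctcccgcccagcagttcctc

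ACACA, start of NM_198837: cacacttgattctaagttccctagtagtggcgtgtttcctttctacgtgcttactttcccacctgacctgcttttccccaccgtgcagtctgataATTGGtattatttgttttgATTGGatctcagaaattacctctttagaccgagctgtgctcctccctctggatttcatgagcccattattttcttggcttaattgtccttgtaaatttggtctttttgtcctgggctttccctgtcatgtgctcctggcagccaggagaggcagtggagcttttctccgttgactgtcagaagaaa

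SCD: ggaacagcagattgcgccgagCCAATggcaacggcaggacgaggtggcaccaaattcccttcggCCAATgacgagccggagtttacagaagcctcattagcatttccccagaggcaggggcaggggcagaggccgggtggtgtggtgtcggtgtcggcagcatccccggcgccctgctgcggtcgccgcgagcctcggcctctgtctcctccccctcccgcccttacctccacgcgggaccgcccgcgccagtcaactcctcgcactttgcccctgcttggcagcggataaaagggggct

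The NM_198836 window holds 1 such box, and the NM_198837 and SCD windows hold 2 each. In SCD they lie at -229 and -186, counted from the RefSeq start, and the deposited SCD start falls between them. In the ACACA windows they lie at -226 for NM_198836 and at -155 and -136 for NM_198837, counted in the same way. NF-Y is a factor that binds CCAAT and is known to act together with SREBP at lipogenic promoters. Of the 14 windows of the 9 genes with an entry, 8 held CCAAT or its reverse complement, beside 34.6% of all 35116 windows in the table. Per gene this is 6 of the 9, for which no per-gene share of the whole table was computed. A gene with several windows has more chances of a match. FADS2 counts only through a box at position 5, after the start of NM_001281502, a transcript close to 0 FPKM in all libraries. The window at the start of its transcript NM_001281501 holds none. The windows are not independent, since those of ACLY overlap and hold the same 2 boxes. A core of the sterol regulatory element to which SREBP binds (TCACNCCAC, both strands) was in 0 of the 14, beside 1.13% of all windows. The palindromic E-box CACGTG was in 0, beside 7.26%, and the Sp1 box GGGCGG (both strands) was in 12, beside 45.0%. A match describes letters in these windows only, and 1 window may hold several of the motifs.

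ELOVL6 was at the lower end of the 10 genes, and its values overlapped in all libraries. ELOVL6 (chromosome 4, 110049073 to 110198664) was at 0.223 FPKM in shBCAT1 1 (bounds 0.0816 to 0.364) and 0.175 FPKM in shBCAT1 2 (0.0397 to 0.311), against 0.200 FPKM in the control (0.0604 to 0.340). The bounds overlapped throughout, over 6.68 to 9.97 equivalent fragments. Here too the value lay on different transcripts. NM_024090 was at 0.223 FPKM in shBCAT1 1 (0.0883 to 0.357) and 0.126 FPKM in shBCAT1 2 (0.0181 to 0.235), against a value close to 0 in the control (upper bound 0.0417). NM_001130721 was close to 0 in shBCAT1 1 (upper bound 0.0432) and at 0.049 FPKM in shBCAT1 2 (0 to 0.131), against 0.2 FPKM in the control (0.0668 to 0.334). The bounds of both transcripts lay apart from the control in shBCAT1 1 and overlapped it in shBCAT1 2.

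Of the desaturases, SCD differed most between the libraries labelled shBCAT1 and FADS1 least, in units of counting error. SCD (chromosome 10, 100347015 to 100364831) was at 2.65 FPKM in shBCAT1 1 (bounds 2.29 to 3.01) and 4.14 FPKM in shBCAT1 2 (3.70 to 4.58), against 2.92 FPKM in the control (2.53 to 3.30). It was below the control within the bounds in shBCAT1 1, at 0.907 times, and above it with bounds apart in shBCAT1 2, at 1.42 times, 4.19 times the counting error. The shBCAT1 libraries lay 5.26 times the counting error apart, further than for any other of the 10 genes. The mean was 3.39 ± 1.05 FPKM (SD, n = 2) and the log2(FPKM + 1) difference 0.14 ± 0.28 (SE; limma adjusted p 0.924), smaller than the spread between the shBCAT1 libraries. FADS1 (chromosome 11, 61799625 to 61817057) was at 1.16 FPKM in shBCAT1 1 (0.896 to 1.43) and 1.22 FPKM in shBCAT1 2 (0.949 to 1.48), against 1.20 FPKM in the control (0.923 to 1.47). These 3 values were the closest of any of the 10 genes on the scale of counting error, and the log2(FPKM + 1) difference was -0.01 ± 0.17 (SE; limma adjusted p 0.996), with a 95% interval from -0.48 to 0.46. With median-of-ratios scaling that difference was 0.035, with the opposite sign. FADS2 (chromosome 11, 61816203 to 61867354) was at 0.882 FPKM in shBCAT1 1 (0.0662 to 1.70) and 1.38 FPKM in shBCAT1 2 (0.973 to 1.78), against 1.01 FPKM in the control (0.588 to 1.42). The bounds overlapped, and the log2(FPKM + 1) difference was 0.08 ± 0.22 (SE; limma adjusted p 0.939). FADS1 and FADS2 face each other and their loci overlap. The use of strand in counting is not given in the sources used here, so reads from the overlap may have gone to either gene. SCD has a pseudogene, SCDP1, that may share its reads.

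ACSL3 followed the same order as SCD, with shBCAT1 2 above the other libraries. ACSL3 (chromosome 2, 222861014 to 222943401) was at 0.931 FPKM in shBCAT1 1 (bounds 0.689 to 1.17) and 1.53 FPKM in shBCAT1 2 (1.11 to 1.94), against 1.00 FPKM in the control (0.654 to 1.35). Neither library had bounds apart from the control, and the log2(FPKM + 1) difference was 0.14 ± 0.24 (SE; limma adjusted p 0.903). Its transcript NM_203372 was close to 0 in shBCAT1 1 (upper bound 0.0321) and at 1.14 FPKM in shBCAT1 2 (0.85 to 1.44), against 0.386 FPKM in the control (0.128 to 0.643). On this transcript the bounds lay apart from the control below in shBCAT1 1 and above in shBCAT1 2. NM_004457, at the same coordinates, ran the other way, at 0.931 and 0.383 FPKM in the shBCAT1 libraries and 0.616 FPKM in the control. Reads that both transcripts share can be assigned to either, and the bounds may not hold all of that uncertainty. A pseudogene, ACSL3P1, and an antisense gene, ACSL3-AS1, carry the gene's name, and reads shared with them may have been split between the entries.

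**Figure D2:**
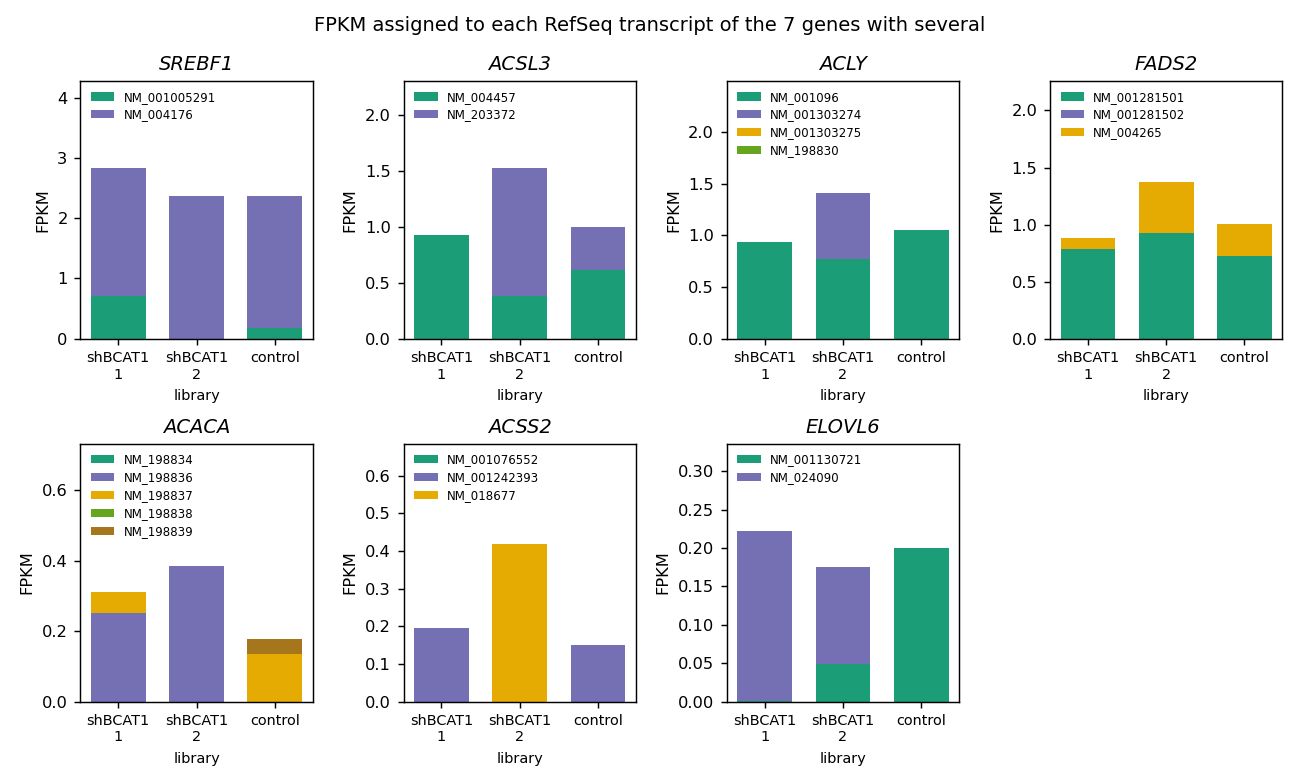
FPKM assigned to each RefSeq transcript (stacked colours) of the 7 genes with more than 1 transcript, in the libraries shBCAT1 1, shBCAT1 2 and control. ACACA and ELOVL6 have different leading transcripts in the control and in both shBCAT1 libraries, while ACSS2 and ACSL3 have another one in shBCAT1 2 alone.

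In SREBF1 and ACLY the assigned FPKM differed most for 1 transcript. SREBF1 kept most of its value on NM_004176, at 2.12 and 2.37 FPKM in the shBCAT1 libraries and 2.20 FPKM in the control, while NM_001005291 was at 0.713 FPKM in shBCAT1 1 (bounds 0.456 to 0.969) and close to 0 in shBCAT1 2 (upper bound 0.0255), against 0.171 FPKM in the control (0.0352 to 0.307). The higher SREBF1 sum of shBCAT1 1 was thus assigned to NM_001005291, which has the same coordinates as NM_004176. As in the other genes with several transcripts, ACLY among them, shared reads can be assigned to any of these transcripts. The bounds may not hold all of that uncertainty. For ACLY, NM_001303274 was close to 0 in shBCAT1 1 (upper bound 0.031) and at 0.64 FPKM in shBCAT1 2 (0.399 to 0.882), against a value close to 0 in the control (upper bound 0.0319). FADS2 kept NM_001281501 as its leading transcript in every library, at 0.786 and 0.923 FPKM in the shBCAT1 libraries and 0.724 FPKM in the control. The 10 genes had 15 transcript entries that averaged 0.1 FPKM or more, of which 2 had bounds above the control in both shBCAT1 libraries (FASN and NM_198836 of ACACA) and 0 had bounds below it, beside 3.31% and 4.24% of 14939 such entries in the whole table.

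Set side by side on the length-scaled FPKM, FASN led in each library, SCD and SREBF1 came next, and 4 and then 3 genes of lower level followed. In shBCAT1 1 the order was FASN, SREBF1 and SCD, then FADS1, ACLY, ACSL3 and FADS2, then ACACA, ELOVL6 and ACSS2. In shBCAT1 2 it was FASN, SCD and SREBF1, then ACSL3, ACLY, FADS2 and FADS1, then ACSS2, ACACA and ELOVL6. In the control it was FASN, SCD and SREBF1, then FADS1, ACLY, FADS2 and ACSL3, then ELOVL6, ACACA and ACSS2. Between FASN and the next gene, and between the SCD and SREBF1 pair and the gene after it, bounds lay apart in every library, and SCD and SREBF1 were apart from each other in shBCAT1 2 alone. Within the 4 and within the 3 no neighbours were apart in any library, so their order does not hold beyond the bounds. Between the last of the 4 and the first of the 3, bounds lay apart in shBCAT1 2 and the control but overlapped in shBCAT1 1. FASN made up 50.9% and 48.6% of the summed FPKM of the 10 genes in the shBCAT1 libraries and 48.1% in the control. The sum itself was 20.6 FPKM in shBCAT1 1 and 25.3 FPKM in shBCAT1 2, against 19.4 FPKM in the control, or 1.06 and 1.30 times the control.

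Of the 10 genes, 7 averaged 1 FPKM or more over the libraries and entered the limma test over 3889 genes, while ACSS2, ACACA and ELOVL6 did not. None of the 7 passed at an adjusted p under 0.05, beside 0.36% of all genes tested (14 lower, 0 higher), and 0 had an unadjusted p under 0.05, beside 5.61%. Fitted by limma with no minimum level, ACACA had a log2(FPKM + 1) difference of 0.19 ± 0.09 (SE; adjusted p 0.81), ACSS2 one of 0.18 ± 0.16 (adjusted p 0.863) and ELOVL6 one of -0.0020 ± 0.067 (adjusted p 1). limma without an intensity trend gave 0 and 0 for the 7 as well. FASN and SREBF1 (2 of the 7) were above the control in both shBCAT1 libraries, beside 25.6% of genes, and 0 were below it in both, beside 43.7%. That count rests on small differences, since median-of-ratios scaling gives 4 and removal of the length trend 1, with FADS1 then below in both. Summed FPKM was lower in both shBCAT1 libraries than in the control. Scaling by that sum would raise the shBCAT1 values against the control, and it was not tried. In shBCAT1 1, 2 of 7 were above the control, beside 31.1% of genes, and in shBCAT1 2 all 7 were, beside 50.8%. Both comparisons share the control library.

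By the confidence bounds, FASN alone of the 7 lay apart above the control in both libraries, beside 1.26% of genes, and 0 lay apart below it, beside 4.17%. In shBCAT1 1 the bounds were apart above the control for 1 of the 7 (FASN), beside 1.65%, and below it for 0, beside 7.61%. In shBCAT1 2 they were apart above it for 2 (FASN and SCD), beside 7.35%, and below it for 0, beside 7.66%. With no minimum level, 4 of the 10 genes (FASN, SREBF1, ACACA and ACSS2) were above the control in both libraries, beside 27.3% of 16449 genes, and 0 were below it, beside 35.2%. Bounds lay apart above in both for 1 of the 10, beside 0.419%, and below for 0, beside 1.05%.

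**Figure D3:**
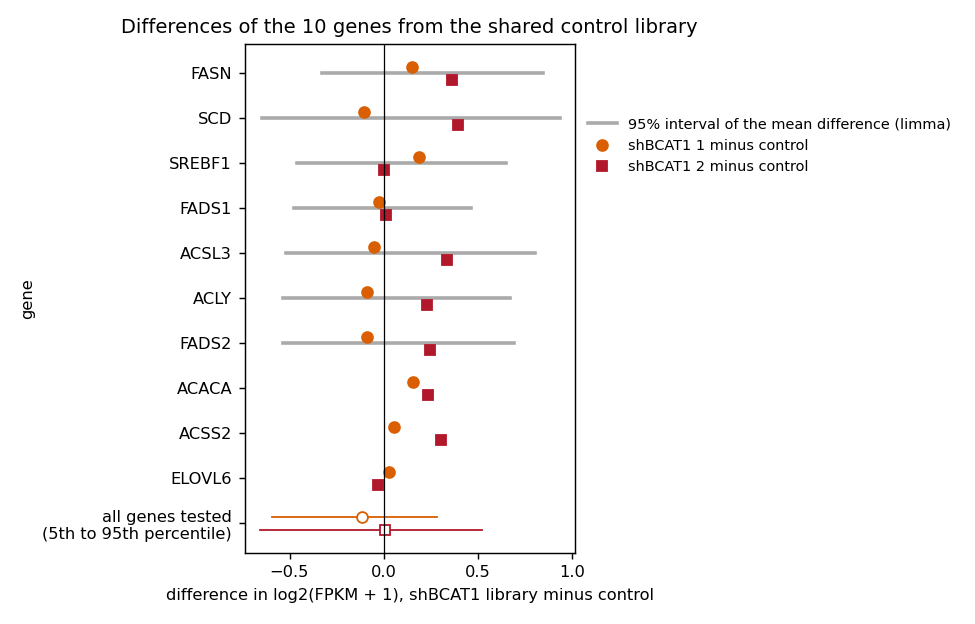
Difference in log2(FPKM + 1) of shBCAT1 1 and shBCAT1 2 from the shared control for the 10 genes, with the 95% limma interval of the mean difference for the 7 tested and, at the bottom, the median and the 5th to 95th percentile of all 3889 genes tested. All 7 intervals cover 0, and the shBCAT1 2 points of 7 tested genes lie above 0 while those of 5 lie below it in shBCAT1 1.

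The median log2(FPKM + 1) difference of the 7 tested genes was 0.09, beside -0.06 for all genes tested. It was -0.05 in shBCAT1 1, beside -0.12, and 0.24 in shBCAT1 2, beside 0.01, so its sign is that of shBCAT1 2. Within the shBCAT1 group, shBCAT1 2 was above shBCAT1 1 for 6 of the 7 genes, SREBF1 being the exception, beside 68.0% of all genes. The bounds of these libraries lay apart for 2 of the 7, FASN and SCD, beside 9.54% of genes, or 7.71% with shBCAT1 2 as the higher library.

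Transcript length moved with the difference across the whole table. Genes with transcripts under 1000 bases had a median log2(FPKM + 1) difference of -0.35 (599 genes), and those of at least 5000 bases one of 0.11 (306 genes). The 7 tested genes have long transcripts, from 3134 bases for FADS2 to 8565 for FASN. With the length trend removed by loess, the difference of FASN was 0.17 instead of 0.26, that of SCD 0.08 instead of 0.14 and that of FADS1 -0.06 instead of -0.01. Those of SREBF1, ACLY and FADS2 were 0.04, 0.01 and 0.05, instead of 0.09, 0.07 and 0.08, and that of ACSL3 was 0.11 instead of 0.14. The class of 26 genes of 5 to 20 FPKM and at least 5000 bases includes FASN. Its median difference was 0.09 in shBCAT1 1 and 0.20 in shBCAT1 2, beside 0.15 and 0.36 for FASN. The part of length in these differences was not tested.

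**Figure D4:**
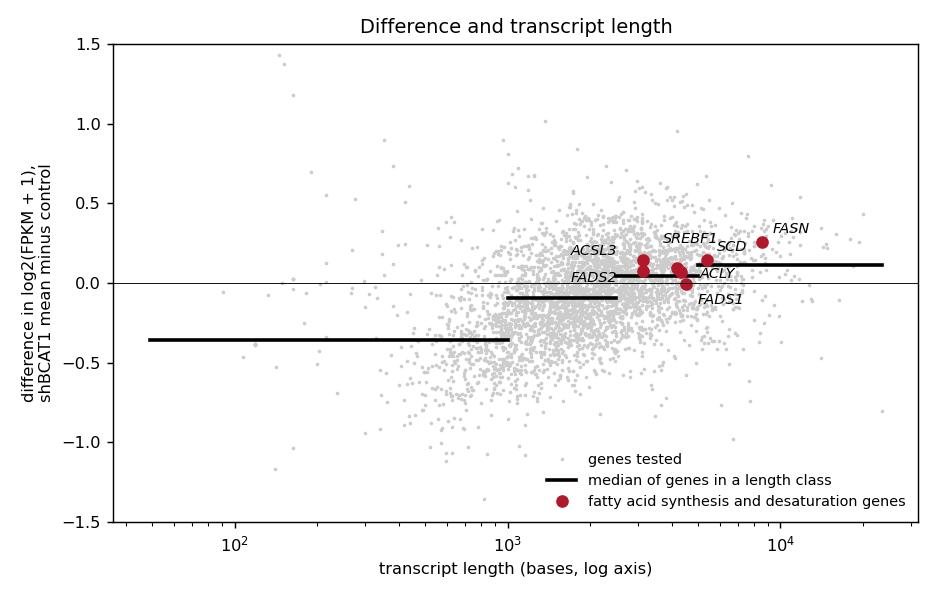
Mean difference in log2(FPKM + 1), shBCAT1 minus control, against transcript length (log axis) for 3800 tested genes with a length (grey, 33 lie outside the axis), with black lines at the median of 4 length classes and the 7 tested genes in red. The 7 lie at the long end, where the class medians are 0.04 and 0.11, and FASN is the highest of them.

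FASN shared its pair of differences with genes of other functions. The 5 protein-coding genes nearest to it, by Euclidean distance between the log2(FPKM + 1) differences of both shBCAT1 libraries from the control, were LGALS3BP, ITGA3, ANKRD11, PPP1R16A and CDT1, at distances of 0.0154 to 0.0253. LGALS3BP, a secreted glycoprotein, was at 10.3 and 12.2 FPKM in the shBCAT1 libraries and 9.15 FPKM in the control. Of 3634 candidates, 164 lay within a distance of 0.1, and the likeness rests on 3 libraries.

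Around the 10 genes, 9 further lists of lipid genes held 144 genes, of which 51 were measured at a mean of 1 FPKM or more. limma called 0 of the 51, with adjusted p from 0.797 to 0.977 for the genes named below, and 10 were above and 23 below the control in both shBCAT1 libraries, beside 25.6% and 43.7% of all genes. In the list of SREBP processing and lipogenic transcription factors, 8 of 21 were measured, 4 above and 2 below the control in both (median log2(FPKM + 1) difference 0.03). NR1H2, which encodes liver X receptor beta, an activator of the SREBF1 gene, was at 5.23 and 5.72 FPKM in the shBCAT1 libraries and 4.76 FPKM in the control. Its dimer partner RXRA was at 2.63 and 2.56 FPKM in the shBCAT1 libraries and 2.37 FPKM in the control. MLXIP, a glucose-responsive factor, was at 1.95 and 1.80 FPKM in the shBCAT1 libraries and 1.74 FPKM in the control. SCAP, the escort that carries SREBP to the Golgi, was at 2.00 and 2.26 FPKM in the shBCAT1 libraries and 2.36 FPKM in the control. The bounds of all 4 genes overlapped the control.

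Among 11 regulators of acetyl-CoA carboxylase, the enzyme encoded by ACACA, only STK11 was measured. STK11, the kinase upstream of AMPK, was at 1.89 and 1.95 FPKM in the shBCAT1 libraries and 1.97 FPKM in the control. For the supply of citrate and NADPH to synthesis, 6 of 9 genes were measured, 0 above and 2 below the control in both libraries (median -0.03). CS, the citrate synthase, was at 1.90 and 2.49 FPKM in the shBCAT1 libraries and 2.54 FPKM in the control. SLC25A11, the mitochondrial oxoglutarate carrier, was at 1.52 and 1.29 FPKM in the shBCAT1 libraries and 2.04 FPKM in the control, with overlapping bounds.

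Other genes of elongation and desaturation were measured for 7 of 17, 2 above and 2 below the control in both libraries (median -0.03). CYB5A, a cytochrome that passes electrons to SCD, was at 3.0 and 2.83 FPKM in the shBCAT1 libraries and 4.14 FPKM in the control. The elongase gene ELOVL1 was at 6.21 and 6.29 FPKM in the shBCAT1 libraries and 5.71 FPKM in the control. TECR, the reductase of the elongation cycle, was at 8.07 and 9.26 FPKM in the shBCAT1 libraries and 9.62 FPKM in the control. HACD2, a dehydratase of the same cycle, was at 1.77 and 2.60 FPKM in the shBCAT1 libraries and 1.76 FPKM in the control. All 4 overlapped the control by their bounds. For fatty acid activation, transport and acyl-CoA binding, the step of ACSL3, 3 of 18 were measured, 0 above and 1 below in both (median 0.10). DBI, the acyl-CoA binding protein, was at 17.0 and 14.8 FPKM in the shBCAT1 libraries and 22.9 FPKM in the control, with bounds apart in shBCAT1 2 alone.

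Glycerolipid and lipid droplet genes, which use the acyl-CoA made upstream, were measured for 7 of 20, 2 above and 3 below the control in both libraries (median -0.10). The lipase gene PNPLA2 was at 6.53 and 4.99 FPKM in the shBCAT1 libraries and 7.06 FPKM in the control, with bounds apart in shBCAT1 2 alone. The acyltransferase gene LPCAT1 was at 2.00 and 2.07 FPKM in the shBCAT1 libraries and 1.71 FPKM in the control. AGPAT1, which acylates lysophosphatidic acid, was at 1.95 and 1.99 FPKM in the shBCAT1 libraries and 1.92 FPKM in the control. GPAT2, a glycerol-3-phosphate acyltransferase, was at 0.837 and 1.39 FPKM in the shBCAT1 libraries and 1.5 FPKM in the control. For LPCAT1, AGPAT1 and GPAT2 the bounds overlapped.

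Of the mitochondrial fatty acid genes, 7 of 19 genes of oxidation were measured, 1 above and 5 below the control in both libraries (median -0.15). ETFB, a subunit of the electron transfer flavoprotein, was at 38.4 and 30.1 FPKM in the shBCAT1 libraries and 44.5 FPKM in the control, with bounds apart in shBCAT1 2 alone. Its partner ETFA was at 4.63 and 4.70 FPKM in the shBCAT1 libraries and 5.91 FPKM in the control. The hydratase gene ECHS1 was at 6.76 and 6.04 FPKM in the shBCAT1 libraries and 8.32 FPKM in the control. ACADVL, the very long chain dehydrogenase, was at 12.4 and 12.2 FPKM in the shBCAT1 libraries and 10.8 FPKM in the control, where its bounds ran from 0 to 22.9. NDUFAB1, the mitochondrial acyl carrier protein, was the 1 gene measured of 7 of mitochondrial fatty acid synthesis. It was at 6.94 and 5.25 FPKM in the shBCAT1 libraries and 9.87 FPKM in the control, a log2(FPKM + 1) difference of -0.63 ± 0.24 (SE; limma adjusted p 0.797), with bounds apart in shBCAT1 2 alone. With the length trend removed the difference was -0.26.

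Cholesterol synthesis and uptake, the branch that SREBP-2 mainly controls, had 11 of 22 genes measured, 1 above and 6 below the control in both libraries (median -0.13). FDFT1, the squalene synthase, was at 3.49 and 4.16 FPKM in the shBCAT1 libraries and 5.67 FPKM in the control, with bounds apart in shBCAT1 1 alone. MSMO1, a sterol demethylation enzyme, was at 0.853 and 1.05 FPKM in the shBCAT1 libraries and 1.49 FPKM in the control. MVD, of the mevalonate pathway, was at 4.91 and 5.13 FPKM in the shBCAT1 libraries and 5.99 FPKM in the control. The sterol isomerase gene EBP was at 2.37 and 2.05 FPKM in the shBCAT1 libraries and 2.72 FPKM in the control. In none of the 9 lists was a gene apart from the control by its bounds in both libraries, and whether any list differs from the 10 genes was not tested.

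**Figure D5:**
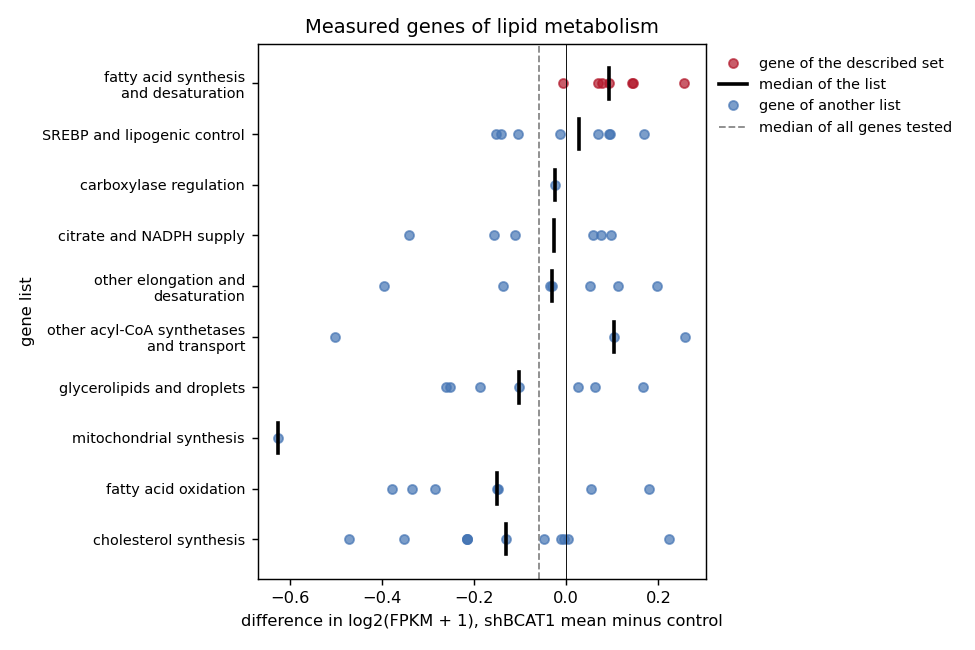
Mean difference in log2(FPKM + 1), shBCAT1 minus control, of each measured gene (points) of the fatty acid synthesis and desaturation genes (top) and 9 other lists of lipid genes, with the list median as a black bar and the median of all genes tested, -0.06, as a dashed line. The top row has a median of 0.09 and runs from -0.01 to 0.26.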

How the data were processed

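Per the submitters' processing notes, the tools were Trim Galore, TopHat and Cufflinks and the build was hg38, with no role or order stated. The deposited values are FPKM that the authors computed per RefSeq accession and locus, 1 table a library, with confidence bounds and a status per the file headers. Read counts are not given, so intervals cover error within a library only. Accessions were named from RefSeq (GRCh38.p14; 49281 of 50337) and GENCODE (645), and 411 kept their accession. FPKM was summed per gene, bounds as a root sum of squares; 5 further ACACA entries on an alternate contig were all at 0. Genes with a status other than OK were left out. limma 3.58.1 (R 4.3.3) was fitted on log2(FPKM + 1), a scale that understates changes of low genes, with an intensity trend and a minimum mean of 1 FPKM, with Benjamini-Hochberg adjustment and two-sided p-values. Since there is 1 control library, only the shBCAT1 pair gives a spread (1 residual degree of freedom, 2.99 prior). The fit was also run on simulated data, with the noise of every library drawn from the difference between the shBCAT1 libraries. That run cannot show how the control varies. Python 3.11.15 with pandas 2.3.3 and matplotlib 3.10.9 built tables and plots.

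The 10 genes and the lists were chosen with earlier results of these data known. Of each other list, up to 4 measured genes with the largest smaller difference of one sign in both libraries are named, and 1 gene of the list on citrate and NADPH is not reported here and is left out of its counts. Alternatives were other pseudocounts, minima, scalings and entry sets, the length trend removed, limma without a trend, and 1 shBCAT1 library at a time. Tests on protein-coding genes alone and on each transcript entry were chosen after seeing the data. Start coordinates were raised by 1 to count from 1.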

Additional observations from a re-analysis of the deposited data

How the results depend on the processing

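No paired analysis was possible because the control has 1 library. For the 10 genes, 0 calls by limma were made under any setting. The count of genes called over the whole table, 14, was 8 at a minimum mean of 5 FPKM, 1 without loci under 300 bases and 0 with no minimum, for protein-coding genes alone and with transcripts kept apart. The tested members above the control in both libraries, 2 of 7, numbered 4 of 7 with median-of-ratios scaling, 4 of 10 with no minimum, and 1 each with the highest transcript of each gene (of 4), a minimum mean of 5 FPKM (of 1) and the length trend removed (of 7). The number below the control in both, 0, became 1 (FADS1) with the length trend removed. No alternative scaled the libraries by their summed FPKM, which could change these counts. Bounds lay apart in both libraries for 1 gene, FASN, under all 5 alternatives tried. FASN has 1 transcript entry, so of these only median-of-ratios scaling could change its bounds. The bounds were not examined with the length trend removed. The median difference of the members, 0.09, ranged from 0.04 to 0.26 over the processing alternatives. The 0.26 is FASN alone, at a minimum mean of 5 FPKM, and the next highest was 0.15, with median-of-ratios scaling. Leaving out 1 shBCAT1 library gave -0.05 without shBCAT1 2 and 0.24 without shBCAT1 1, with no test. Under the processing alternatives the difference of FASN lay between 0.17 and 0.45 and that of SCD between 0.08 and 0.22. Without shBCAT1 2 they were 0.15 and -0.10, and without shBCAT1 1 0.36 and 0.39. Directions turned in 8 of 331 values of single genes under those alternatives: FADS1 (0.035) and STK11 (0.025) with median-of-ratios scaling, MLXIP (-0.020) and TECR (0.046) with the length trend removed, TECR (0.041) and ETFB (0.0016) with quantile normalization, and ELOVL1 (-0.085) and ETFA (0.67) with the highest transcript. Many of the 331 could not turn, since other minima, limma without a trend and the removal of short loci leave a gene's difference as it is. Restriction to primary chromosomes left these differences unchanged too. With 1 library left out, 6 of 70 turned: SCD, ACLY (-0.09), FADS2 (-0.09), ACSL3 (-0.05) and ELOVL6 (0.03) without shBCAT1 2, and FADS1 (0.01) without shBCAT1 1. The cause was not tested. Fewer than 20 equivalent fragments stand behind ACSS2 and ELOVL6 in every library, behind ACACA in shBCAT1 1 (6.37) and the control (10.7), and behind FADS2 in shBCAT1 1 (4.68). Differences within the bounds were not detectable there. The figures do not measure depth alone, since the bounds also hold error in assigning reads to transcripts. In shBCAT1 1, ACLY at 0.933 FPKM had 57.1 equivalent fragments, while FADS2 at 0.882 FPKM had 4.68.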
